A study of Rattus norvegicus with 10 samples.

Results

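The 10 genes described here act on microtubules. They are the stabilizers Tppp, Tppp3, Map6d1, Map6, Mapt, Map2 and Map1b, and the stathmins Stmn1, Stmn2 and Stmn4, which hold tubulin away from the polymer. They were chosen by name as microtubule regulators, and in part by measured values, because Tppp and Map6d1 were known to rank high in control oligodendrocytes (OLs) against control oligodendrocyte progenitor cells (OPCs) of these same data. For the members, the comparison of these control groups is therefore a description without a test. The same control libraries serve as controls in later comparisons. There, Tppp and Map6d1 are by their choice more likely to come out lower in treated OLs and higher in treated OPCs. They are 10 of the 23487 genes counted and of the 14561 genes that carried a symbol. Each symbol belonged to 1 gene ID, and all 10 members passed the filter on low counts in each of the 5 comparisons.

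Microtubules grow and shrink at their ends by adding or losing dimers of alpha- and beta-tubulin, and proteins bound along the lattice slow the loss. In OLs, microtubules fill the branching processes and carry myelin proteins and mRNAs, among them that of myelin basic protein, out to the sheath. TPPP was first purified from brain as a protein that promotes tubulin assembly, and in OLs it also nucleates microtubules at Golgi outposts.

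RNA-seq measured mRNA in 10 libraries of primary rat cells, 2 for each of 5 groups, each at an RNA mimic or inhibitor dose of 30 nM. OLs were kept in medium with T3 and CNTF and taken 5 days after transfection with a scrambled mimic (OL miR-ctl), a miR-145-5p mimic (OL miR-145), or the miR-145-5p and miR-219 mimics together (OL miR-145+miR-219). OPCs were kept in medium with FGF2 and PDGFAA and taken 24 h after transfection with a scrambled inhibitor (OPC anti-miR-ctl) or a miR-145-5p inhibitor (OPC anti-miR-145). All cultures came from cortices of Sprague-Dawley pups aged P1 to P3, by way of mixed glial cultures from which OPCs were shaken loose and then separated from other cells by differential adhesion, an enrichment after which other glia could still remain. The 2 OL miR-145 libraries also carry a treatment tag that names miR-219, whereas their titles and descriptions name miR-145 alone, and they were grouped by title. The labels do not say whether replicates were separate cultures. The study counts every N as a biological replicate and gives an N of 2 per condition for RNA-seq. It defines N for primary cultures as the cells of 1 mouse, but these cells are from rats. The p-values therefore measure the spread between the libraries of a group, and how much of it is technical is not known. The estimated counts of a library summed to between 33505706 and 42684206. Levels are given as CPM, the counts of a gene scaled to a common library size after TMM normalization over the 10 libraries.

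Marker lists were read first, to set the labels against the data. The 13 maturing OL markers summed to between 1204 and 1431 CPM in the 4 OPC libraries and to between 16600 and 36430 CPM in the 6 OL libraries, with Cnp the most abundant in OPCs and Mbp in OLs. In OL miR-ctl this sum was 18331 and 33243 CPM in replicates 1 and 2, in OL miR-145 it was 16600 and 26570 CPM, and in OL miR-145+miR-219 it was 20639 and 36430 CPM. Replicate 2 was the higher library in each OL group. The 5 OPC markers measured, of 7 listed, summed to between 3761 and 4872 CPM in OPCs and to between 1528 and 2242 CPM in OLs, with Ptprz1 the most abundant. The labels therefore held for OLs against OPCs, while markers of other cells were present as well.

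The 7 astrocyte markers, led by Gfap in every OL library but in no OPC library, summed to 655 and 624 CPM in OPC anti-miR-ctl, 404 and 448 CPM in OPC anti-miR-145, 6346 and 5345 CPM in OL miR-ctl, 13016 and 8858 CPM in OL miR-145, and 10747 and 6377 CPM in OL miR-145+miR-219. Both OL miR-145 libraries exceeded both OL miR-ctl libraries. The 8 microglia markers, led by Csf1r in OPCs and by C1qa in 5 of the 6 OL libraries, summed to 746 and 702 CPM in OPC anti-miR-ctl, 665 and 532 CPM in OPC anti-miR-145, 222 and 319 CPM in OL miR-ctl, 260 and 607 CPM in OL miR-145, and 242 and 407 CPM in OL miR-145+miR-219. The OL groups overlapped. The 11 neuron markers found, of 14 listed, were led by Elavl4 in OPCs and Syt1 in OLs and summed to between 143 and 176 CPM in OPCs and between 54.6 and 77.7 CPM in OLs, with Slc32a1 at 0 in both OL miR-ctl libraries and in OL miR-145 replicate 1. The 10 markers of dividing cells, led by Top2a in OPCs and Pcna in OLs, summed to 1850 and 1967 CPM in OPC anti-miR-ctl, 708 and 804 CPM in OPC anti-miR-145, and between 249 and 374 CPM in OLs. None of the other markers found was at 0 in any library. In bulk RNA, fewer cells of a type and less RNA per cell cannot be told apart, for these markers and for every gene below.

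Tppp (ENSRNOG00000028261) encodes the tubulin polymerization promoting protein. Its level was 7.39 and 7.25 CPM in OPC anti-miR-ctl and 5.91 and 6.88 CPM in OPC anti-miR-145. Its OL levels were 238 and 250 CPM with miR-ctl, 141 and 213 CPM with miR-145, and 175 and 277 CPM with miR-145+miR-219. Every OL library lay far above every OPC library, the miR-145 libraries were each lower than either miR-ctl library, and the miR-145+miR-219 libraries overlapped both groups. The highest group mean, in OL miR-ctl, was 38.2 times the lowest, in OPC anti-miR-145.

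Tppp3 (ENSRNOG00000016890), a shorter paralog that also bundles microtubules, was nearly absent from OPCs. It had 12 and 7 counts in OPC anti-miR-ctl and 4 and 13 counts in OPC anti-miR-145, or 0.277, 0.192, 0.101 and 0.299 CPM. OL libraries held 31.6 and 34.9 CPM with miR-ctl, 46 and 49.2 CPM with miR-145, and 37.6 and 33.6 CPM with miR-145+miR-219. The miR-145 libraries were the highest of the 10, and the other OL groups overlapped each other. The group means spanned 238-fold, a ratio that rests on the few counts in OPCs.

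Map6d1 (ENSRNOG00000001911) encodes a small relative of MAP6 that protects microtubules against cold. In OPCs it was at 9.99 and 9.8 CPM with anti-miR-ctl and 8.32 and 10.7 CPM with anti-miR-145, which overlapped. OL levels were 197 and 189 CPM with miR-ctl, 121 and 141 CPM with miR-145, and 132 and 173 CPM with miR-145+miR-219. Both miR-ctl libraries were above all 4 mimic libraries, and the mimic groups overlapped each other. The group means spanned 20.3-fold, from OPC anti-miR-145 to OL miR-ctl.

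Map6 (ENSRNOG00000027204) encodes MAP6, also called STOP, whose binding keeps microtubules stable in the cold and against depolymerizing drugs. Its OPC levels were 92.7 and 90.8 CPM with anti-miR-ctl and 135 and 131 CPM with anti-miR-145. Its OL levels were 93.7 and 104 CPM with miR-ctl, 77.2 and 95.1 CPM with miR-145, and 88.6 and 123 CPM with miR-145+miR-219. The highest group was OPC anti-miR-145 and the lowest OL miR-145, and the groups spanned only 1.54-fold. Control OLs and control OPCs stood next to each other, and their order swapped when CPM was computed on library totals.

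Mapt (ENSRNOG00000005133) encodes tau, which binds along the lattice of axonal microtubules and is also made by OLs. It was at 263 and 264 CPM in OPC anti-miR-ctl and at 192 and 202 CPM in OPC anti-miR-145. In OLs it was at 679 and 487 CPM with miR-ctl, 502 and 455 CPM with miR-145, and 508 and 506 CPM with miR-145+miR-219. All OL libraries exceeded all OPC libraries, and the OL miR-ctl libraries lay on either side of those with both mimics and overlapped those of miR-145. The group means spanned 2.96-fold, from OPC anti-miR-145 to OL miR-ctl.

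Map2 (ENSRNOG00000011841), a relative of tau known best from dendrites, ran the other way. It was at 534 and 509 CPM in OPC anti-miR-ctl and at 475 and 619 CPM in OPC anti-miR-145. OLs had 364 and 240 CPM with miR-ctl, 388 and 320 CPM with miR-145, and 399 and 257 CPM with miR-145+miR-219. The 4 OPC libraries were above the 6 OL libraries, and neither the OPC groups nor the OL groups separated from each other. Group means spanned 1.81-fold, and the OPC groups at the top changed places on library totals.

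Map1b (ENSRNOG00000017428) encodes a microtubule-associated protein of growing axons that is also made early in the OL lineage. It was at 197 and 187 CPM in OPC anti-miR-ctl and at 274 and 372 CPM in OPC anti-miR-145. In OLs it was at 621 and 568 CPM with miR-ctl, 342 and 469 CPM with miR-145, and 456 and 620 CPM with miR-145+miR-219. OPC anti-miR-ctl was the lowest group, OL miR-145 overlapped OPC anti-miR-145, and OL miR-ctl was the highest group by its mean, which was 3.09 times the lowest.

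Stmn1 (ENSRNOG00000016810) encodes stathmin, a cytosolic protein that binds tubulin dimers and favours shrinkage until it is phosphorylated. It was at 487 and 551 CPM in OPC anti-miR-ctl and at 441 and 412 CPM in OPC anti-miR-145. In OLs, Stmn1 stood at 179 and 306 CPM with miR-ctl, 185 and 276 CPM with miR-145, and 244 and 369 CPM with miR-145+miR-219. OPCs stood above OLs in every library, and the OL groups overlapped because replicate 2 was well above replicate 1 in each. Group means spanned 2.25-fold.

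Stmn2 (ENSRNOG00000011705) encodes a membrane-anchored stathmin of growing neurites. It had 7.25 and 6.7 CPM in OPC anti-miR-ctl and 5.58 and 5.54 CPM in OPC anti-miR-145. OL libraries were at 0.552 and 0.889 CPM with miR-ctl, 1.09 and 2.91 CPM with miR-145, and 1.42 and 1.71 CPM with miR-145+miR-219. These OL levels rest on 22 and 29 counts with miR-ctl, 38 and 115 counts with miR-145, and 58 and 61 counts with both mimics. The OL miR-ctl libraries were the lowest of the 10, and the mimic groups overlapped. Group means spanned 9.68-fold.

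Stmn4 (ENSRNOG00000053334), another membrane-anchored stathmin, had its high levels in OLs, unlike Stmn1 and Stmn2. It was at 91.2 and 107 CPM in OPC anti-miR-ctl and at 135 and 116 CPM in OPC anti-miR-145. In OLs, Stmn4 stood at 495 and 1007 CPM with miR-ctl, 473 and 707 CPM with miR-145, and 615 and 1024 CPM with miR-145+miR-219. OL libraries were all higher than OPC libraries, while the OL groups overlapped, with replicate 2 the higher library in each as for Stmn1. Group means spanned 8.29-fold. Tppp, Map6 and Stmn2 were likewise higher in replicate 2 of every OL group, as was the maturing OL marker sum, whereas Mapt and Map2 were lower there in every OL group. The part of that sum in the spread was not tested.

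**Figure D1:**
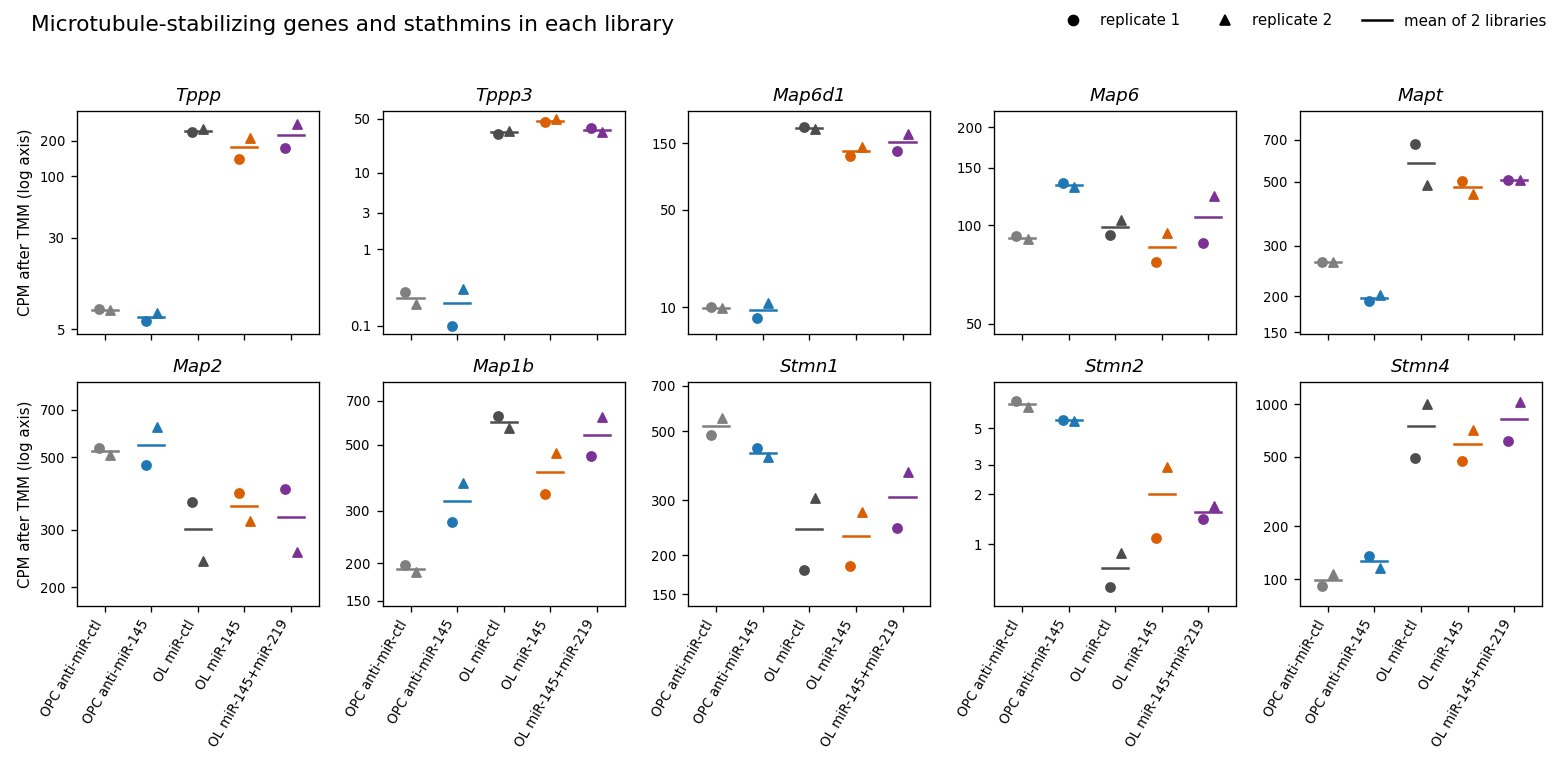
CPM after TMM scaling (log axes that differ between panels) of the 10 genes in each library, with circles for replicate 1, triangles for replicate 2 and a line at the mean of the 2 libraries of a group. Tppp, Tppp3 and Map6d1 sit more than 10 times higher in OLs than in OPCs, while Map2, Stmn1 and Stmn2 are lower in OLs.

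Control OLs were set beside control OPCs to describe how the levels of the members differ between these stages. The groups also differ in medium, time and the kind of scrambled RNA, and these cannot be told apart. All 10 members had libraries of these groups that did not overlap, 7 higher and 3 lower in OLs, where 81.8% of the 15721 genes tested did not overlap and edgeR called 57.5% (28.8% higher and 28.7% lower). Nothing is read from these shares, since this contrast was used in choosing the members. Scaling to library totals in place of TMM moved the median log2 ratio of all genes here to -0.12, and on that scale Map6 did not keep its direction.

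Tppp was 33.1-fold higher in OL miR-ctl than in OPC anti-miR-ctl and ranked 192 from the top of 15721 genes by log2 fold change. Map6d1 was 19.3-fold higher and ranked 312. Tppp3, which the choice did not name for its rank, was 137-fold higher and ranked 67, with few counts in OPCs. Map6, the larger relative of Map6d1, differed by 1.07-fold. Among the classical microtubule-associated proteins, Map1b was 3.06-fold and Mapt 2.19-fold higher in OLs, and Map2 had a log2 fold change of -0.80. The stathmins split. Stmn4 was 7.53-fold higher in OLs, whereas Stmn1 had a log2 fold change of -1.11 and Stmn2 of -3.30. Thus the stathmins had members on both sides. Both members of the TPPP family were higher in OLs, but for Tppp this was known when the members were chosen. Counts summed per gene cannot separate the isoforms that Mapt, Map2 and Map6 are known to have.

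OLs given the miR-145 mimic were compared with OL miR-ctl to ask what excess miR-145 does to maturing OLs. No member passed edgeR's test without a replicate term. With the quasi-likelihood test and Benjamini-Hochberg adjustment over 15461 genes, 0 of the 10 members and 0% of all genes were called at an adjusted p under 0.05. At an unadjusted p under 0.05 the count was 4 members, against 13.4% of all genes, and DESeq2 called 2 members, against 4.20% of all genes. With a replicate term in the fit, edgeR called 5 of the 10 members (Tppp, Tppp3, Map6d1, Map1b and Stmn2) and 2272 of the 15461 genes. The replicate numbers are not known to pair the libraries. The libraries of the groups did not overlap for 5 members, against 47.3% of all genes, so that the share of members apart was near that of all genes. The median log2 fold change was -0.24 over the members and -0.01 over all genes. Of the 5, Tppp, Map6d1 and Map1b were lower with miR-145 in both libraries, and Tppp3 and Stmn2 were higher. Tppp and Map6d1 were known to rank high in these same OL miR-ctl libraries. That choice by itself favours a lower value with a mimic for these genes.

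In the TPPP family the levels with miR-145 went in opposite directions, and the difference between the genes was not tested. Tppp had a log2 fold change of -0.46 (SE 0.21, edgeR adjusted p = 0.417, 0.00228 to 0.447 over the 6 other settings tried), and Tppp3 of 0.52 (SE 0.12, edgeR adjusted p = 0.19). DESeq2 gave Tppp3 an adjusted p of 0.0456, and over these 6 settings this value ran from 0.0024 to 0.191. In the MAP6 family, Map6d1 had a log2 fold change of -0.55 (SE 0.12, edgeR adjusted p = 0.19), with an adjusted p of 0.0216 in DESeq2 and a range of 0.000275 to 0.194 over the 6 settings. With 1 library left out, the log2 fold change ran from -0.79 to -0.19 for Tppp, from 0.45 to 0.59 for Tppp3 and from -0.67 to -0.44 for Map6d1. Map6 itself had a log2 fold change of -0.19 (SE 0.14, from -0.35 to -0.04 with 1 library left out), with overlapping libraries.

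Among the other stabilizers, Map1b had a log2 fold change of -0.55 (SE 0.18, edgeR adjusted p = 0.317, 0.000331 to 0.33 over the 6 other settings). Mapt had -0.28 (SE 0.19) and Map2 0.24 (SE 0.23), each within overlapping libraries. With 1 library left out, the value for Map1b ran from -0.79 to -0.33, that for Mapt from -0.51 to -0.02 and that for Map2 from -0.04 to 0.57. Stmn2 had the largest estimate of the 10 members, a log2 fold change of 1.49 (SE 0.58, edgeR adjusted p = 0.364, 0.00682 to 0.367 over the 6 other settings), which ran from 0.61 to 2.03 as single libraries were left out. Stmn1 at -0.07 (SE 0.31) and Stmn4 at -0.34 (SE 0.38) had SEs as large as their estimates, and their sign changed with 1 library left out. Beside these values, all 7 astrocyte markers were higher in both OL miR-145 libraries than in both OL miR-ctl libraries, with a median log2 fold change of 0.88, and all 8 microglia markers had a positive log2 fold change, with a median of 0.99. The edgeR test called 0 of these markers, 6 astrocyte and 2 microglia markers had an unadjusted p under 0.05, and DESeq2 called 4 and 1. Of the 13 maturing OL markers 8 had a negative log2 fold change, with a median of -0.23 over the list, and Cnp, Myrf, Enpp6 and Ugt8 were lower in both libraries, while none was higher in both and edgeR and DESeq2 called 0. Of 5 OPC markers 4 were negative (median -0.39), with 2 lower without overlap. Of 10 neuron markers tested 6 were negative (median -0.23), with 4 higher and 3 lower without overlap. Of 10 markers of dividing cells 7 were positive (median 0.12), with 3 higher and 1 lower without overlap. In these lists edgeR called 0, and DESeq2 called 1 marker of dividing cells. The part of these cells in the members' values was not tested.

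OLs with both mimics were compared with the same OL miR-ctl libraries, so this comparison and the one before share their controls. By edgeR's test 0 of 10 members and 0% of 15436 genes were called. At an unadjusted p under 0.05 there was 1 member, Stmn2, against 6.19% of all genes, and DESeq2 called 0 members against 0.687% of all genes. Libraries did not overlap for 2 members, against 36.8% of all genes. These were Map6d1, lower with both mimics at a log2 fold change of -0.33 (SE 0.16, edgeR adjusted p = 0.814; -0.54 to -0.15 with 1 library left out), and Stmn2, higher at 1.13 (SE 0.38, edgeR adjusted p = 0.8). The other 8 members lay between -0.20, for Mapt, and 0.34, for Stmn1. Tppp was at -0.11 (SE 0.23) and Tppp3 at 0.10 (SE 0.12), and both overlapped the controls. All 7 astrocyte markers had a positive log2 fold change here too, with a median of 0.56, of which 4 did not overlap. So had 6 of 8 microglia markers, with a median of 0.52 and 4 higher without overlap, and 8 of 13 maturing OL markers, with a median of 0.23 and 2 higher and 1 lower without overlap. DESeq2 called 1 astrocyte and 1 microglia marker, and the part of these cells was not tested.

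Adding the miR-219 mimic to the miR-145 mimic was read from OL miR-145+miR-219 against OL miR-145. With edgeR 0 of 10 members and 0% of 15501 genes were called, and each member had an adjusted p of 1. At an unadjusted p under 0.05 there was 1 member, Tppp3, against 1.47% of all genes, and DESeq2 called 0 members against 0.0581% of all genes. Without any effect, a share of about 0.05 would lie under that threshold, so the 0 calls do not show that nothing changed. Deviations of libraries with the same number correlated at 0.422 here, and the cause of the low share was not tested. With the replicate term, edgeR called 3 of the 10 members (Map1b, Stmn1 and Stmn4) and 184 of the 15501 genes. The libraries stood apart for 2 members, against 24.8% of all genes. Tppp3 was lower with both mimics, at a log2 fold change of -0.43 (SE 0.12), and Mapt was higher by 0.08 (SE 0.11), within its SE. Stmn4 at 0.46 (SE 0.32), Stmn1 at 0.40 (SE 0.29), Map1b at 0.40 (SE 0.23) and Tppp at 0.34 (SE 0.31) had positive estimates with overlapping libraries, while Stmn2 was at -0.37 and Map2 at -0.12, also overlapping. With 1 library left out, the value ran from 0.05 to 0.80 for Stmn4, from 0.07 to 0.73 for Stmn1, from 0.16 to 0.65 for Map1b and from -0.03 to 0.68 for Tppp. Over the 6 other settings the adjusted p ran up to 1 from 0.0198 for Stmn4, from 0.0326 for Stmn1, from 0.0299 for Map1b and from 0.0739 for Tppp. All 13 maturing OL markers had a positive log2 fold change here, with a median of 0.36 and overlapping libraries for each. All 7 astrocyte markers had a negative one, with a median of -0.31, as had all 8 microglia markers, with a median of -0.45, and the part of these cells was not tested. The OL miR-145 libraries enter both this comparison and the first one.

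In OPCs the miR-145 inhibitor was compared with its scrambled control to ask what loss of miR-145 does before differentiation. Map6 and Map1b rose and Mapt fell. The edgeR test called 3 of the 10 members at an adjusted p under 0.05, 2 higher and 1 lower, against 28.1% of the 15496 genes tested (12.1% higher and 16.0% lower), so the share of members called was close to that of all genes. Libraries did not overlap for 7 members, against 68.6% of all genes. DESeq2 called 5 members, adding Stmn1 and Stmn4, against 26.5% of all genes. The median log2 fold change was -0.14 over the members, against 0.005 over all genes.

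Map6, at 135 and 131 CPM against 92.7 and 90.8 CPM, rose 1.43-fold, a log2 fold change of 0.52 (SE 0.08, edgeR quasi-likelihood with Benjamini-Hochberg adjusted p = 0.00347). Map1b, at 274 and 372 CPM against 197 and 187 CPM, rose 1.66-fold, a log2 fold change of 0.73 (SE 0.14, edgeR adjusted p = 0.00814). Mapt, at 192 and 202 CPM against 263 and 264 CPM, fell by 0.43 on the log2 scale (SE 0.08, edgeR adjusted p = 0.00669). For each of these genes both inhibitor libraries lay on the same side of both controls. The call for Map1b held in every setting tried, with an adjusted p between 3.25e-06 and 0.0444 over the other settings and between 1.06e-06 and 0.0251 with 1 library left out, when its log2 fold change ran from 0.51 to 0.93. The call for Map6 was lost with all 5 groups in a single fit (adjusted p = 0.0574, range over the other settings from 4.66e-06) and without OPC anti-miR-ctl replicate 2 (adjusted p = 0.0631, range with 1 library left out from 6.56e-05), while its log2 fold change ran from 0.47 to 0.55 with 1 library left out. The call for Mapt was lost with all 5 groups in a single fit (adjusted p = 0.0873, range from 5.23e-05) and without either OPC anti-miR-ctl library, where the adjusted p reached 0.0619 (range from 0.000291), while its log2 fold change ran from -0.46 to -0.41. Leaving out single libraries moved the count of called members and that of all genes called in the same direction, up without an inhibitor library and down without a control library. In these fits the lone library of a group was assumed to vary like the other group.

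Of the 7 members not called, 4 had libraries that did not overlap. Stmn1 had a log2 fold change of -0.30 (SE 0.10, edgeR adjusted p = 0.0628) and Stmn4 of 0.33 (SE 0.12, edgeR adjusted p = 0.0781). These estimates had opposite signs, neither passed edgeR's test, and the difference between the genes was not tested. DESeq2 gave adjusted p-values of 0.0282 for Stmn1 and 0.0445 for Stmn4, the lowest over the other settings, whose highest were 0.558 and 0.557, and edgeR also called Stmn1 with a minimum of 10 counts and with no filter. Stmn2 had a log2 fold change of -0.34 (SE 0.13, edgeR adjusted p = 0.0981) and Tppp of -0.21 (SE 0.13, edgeR adjusted p = 0.284). The libraries overlapped for Tppp3, Map6d1 and Map2. Map6d1 was at -0.07 (SE 0.14) and Map2 at 0.05 (SE 0.12), while Tppp3 at -0.24 (SE 0.60) had too few counts for a narrower estimate. Tppp and Map6d1, which stood high in OLs, thus had estimates below 0 in OPCs that did not pass the test. Beside these values, all 10 markers of dividing cells fell, with a median log2 fold change of -1.43. The edgeR test also called 4 of 11 neuron markers higher and 0 lower, 1 of 7 astrocyte markers higher and 3 lower, 4 of 8 microglia markers higher and 3 lower, 2 of 13 maturing OL markers higher and 2 lower, and 1 of 5 OPC markers higher and 2 lower. Of the 13 maturing OL markers 10 had a negative log2 fold change, with a median of -0.27 over the list. Without overlap, 10 of them were lower and 2 higher. The part of these cells in the members' values was not tested.

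Map1b had a positive estimate with the inhibitor in OPCs and a negative one with the mimic in OLs, 0.73 against -0.55. Map6 had 0.52 and -0.19, Stmn2 -0.34 and 1.49, Stmn4 0.33 and -0.34, and Tppp3 -0.24 and 0.52. The other 5 members had the same sign in both, Mapt at -0.43 and -0.28, Tppp at -0.21 and -0.46, Stmn1 at -0.30 and -0.07, Map6d1 at -0.07 and -0.55, and Map2 at 0.05 and 0.24. Only the OPC values of Map6, Map1b and Mapt passed edgeR's test without the replicate term. Cell stage, agent and time differ between these comparisons, as does the spread between replicates, and no difference between them was tested.

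**Figure D2:**
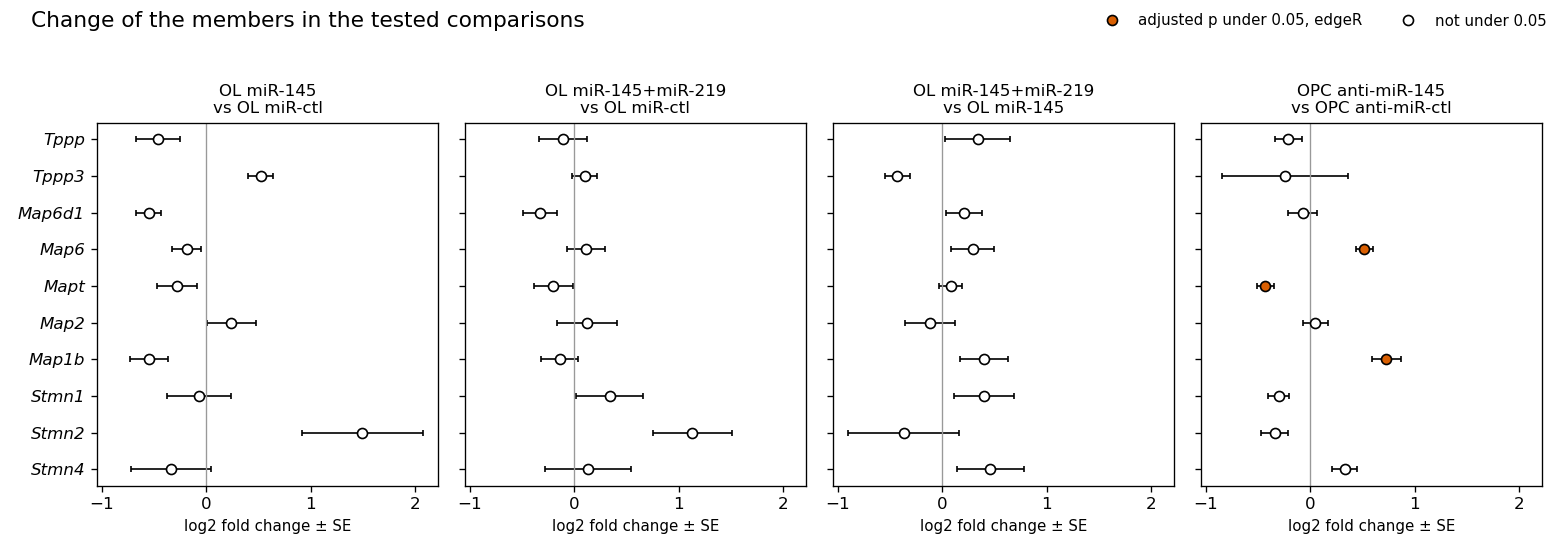
Log2 fold change (points) with its SE (bars) of each member in the 4 tested comparisons, filled where edgeR's adjusted p was under 0.05. Map6 at 0.52, Mapt at -0.43 and Map1b at 0.73 are filled in the OPC comparison, and no point is filled in the OL comparisons.

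Other microtubule genes were read from 9 lists, of which 102 genes of 118 listed were matched to 1 gene ID. In OPCs with the miR-145 inhibitor, edgeR called 40 of the 102, 17 higher and 23 lower, or 39.2% against 28.1% of all genes, with a median log2 fold change of 0.00 against 0.005. That count was 26 with all 5 groups in a single fit, where 2553 of all genes were called. It fell without either OPC anti-miR-ctl library, as did the count of all genes called. Of the relatives of the members, 3 of 4 rose, Stmn3 by a log2 fold change of 0.54, Map1a by 0.38 and Map4 by 0.32. Of 18 other microtubule-associated proteins 3 rose and 3 fell. Doublecortin-like kinase Dclk1 was at 332 and 362 CPM against 133 and 132 CPM (log2 fold change 1.37, SE 0.08) and Mtus1 rose by 0.69. The spindle protein Prc1, at 96.4 and 107 CPM against 276 and 321 CPM, fell by 1.57 on the log2 scale. Tpx2, which also acts in the spindle, was at 77.4 and 85.3 CPM against 206 and 219 CPM and fell by 1.40. The spindle genes moved beside the markers of dividing cells, whose part was not tested.

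Among the 12 tubulins found, 2 rose and 6 fell with the inhibitor. For these and the lists below, edgeR called 12.1% of all genes higher and 16.0% lower. Tubb3 was at 65.1 and 59.3 CPM against 27.8 and 26.7 CPM (log2 fold change 1.18) and Tubb6 rose by 0.54, whereas Tuba1c fell by 1.56 and Tuba8 by 1.20. Tubulin genes are close copies that share reads, so their single values are uncertain. Of 17 genes of nucleation and minus ends 0 rose and 9 fell, with the augmin subunits Haus4, at 11.1 and 9.89 CPM against 20.4 and 21.6 CPM, and Haus3 falling by 1.01 and 0.88. Of 14 plus-end genes 1 rose, Tacc2 by 0.39, and 4 fell, led by the depolymerizing kinesin Kif2c by 1.50 and by Tacc3 by 1.27. Of 6 severing genes Fignl1 fell, by 1.31, and the other 5 did not pass. All 10 markers of dividing cells fell beside these genes, with a median log2 fold change of -1.43, and their part was not tested. Of 14 tubulin modifying enzymes 3 rose, Ttl by 0.46, Ttll1 by 0.42 and Ttll12 by 0.39. The folding cofactor Tbcc rose by 0.51, 1 of 5. Of 12 kinase and phosphatase genes that act on MAPs 4 rose, Ppp2r2b by 0.49, Camk2b by 0.45, Mark4 by 0.40 and Cdk5 by 0.37. Without OPC anti-miR-ctl replicate 1, the calls were lost for Stmn3, Map1a, Map4, Tubb6, Tuba8, Tacc2, Tbcc, all 3 modifying enzymes and all 4 genes acting on MAPs, and without OPC anti-miR-ctl replicate 2 for the same genes other than Stmn3 and Tubb6. Tuba8 also lost its call without OPC anti-miR-145 replicate 1 and with DESeq2, Map1a with a minimum of 10 counts, and Stmn3, Map1a, Mtus1, Tacc2, Ttll1, Tbcc and Camk2b with all 5 groups in a single fit.

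In control OLs against control OPCs, where the lists were tested, edgeR called 68 of 102, 22 higher and 46 lower, or 66.7% against 57.5% of all genes, with a median log2 fold change of -0.26 against 0.007. Of all genes, 28.8% were called higher and 28.7% lower. The count of list genes called fell without either OPC anti-miR-ctl library, as did that of all genes called. The largest rise among the named genes was that of the tubulin deacetylase Sirt2, at 2933 and 2790 CPM against 210 and 209 CPM (log2 fold change 3.76, SE 0.09). Tubb4a, the beta-tubulin known from myelinating OLs, was at 1136 and 1324 CPM against 117 and 124 CPM (3.34, SE 0.12). Relatives of the members also split, with Map1a rising by 1.31 and Stmn3 and Map1s falling by 1.37 and 0.60. Genes of nucleation and minus ends fell in 13 of 17 cases, among them Haus4 by 2.43 and Tubg2 by 1.61, and rose in 2, Haus8 by 1.46 and Camsap2 by 0.52. Other lists gave 4 higher and 6 lower of 18 microtubule-associated proteins (Nav2 1.86, Map7 0.57, Prc1 -3.69, Tpx2 -3.46), and 3 and 6 of 12 tubulins (also Tubb3 1.80, Tuba1c -2.95, Tubb5 -1.69). Plus-end genes gave 3 and 7 of 14 (Slain1 0.74, Mapre3 0.40, Kif2c -3.69, Tacc3 -3.43). Among the severing genes, Fignl1 fell by 3.38 and Katna1 by 0.39. Modifying enzymes gave 5 and 5 of 14 (also Ttll5 1.83, Vash2 -1.71, Agtpbp1 -0.92), folding cofactors 1 and 1 of 5 (Tbcel 0.40, Tbca -0.69), and kinase and phosphatase genes 3 and 3 of 12 (Ppp2ca 0.77, Gsk3a 0.44, Camk2b -2.68, Cdk5r1 -1.82). Calls were lost without OPC anti-miR-ctl replicate 1, and also without OPC anti-miR-ctl replicate 2, for Camsap2, Gsk3a, Katna1, Map7, Mapre3, Slain1 and Tbcel, and for Map7 also with all 5 groups in a single fit. All 10 markers of dividing cells fell here as well, with a median of -3.50, 11 of 13 maturing OL and 6 of 7 astrocyte markers rose, 8 of 11 neuron markers fell, 4 of 5 OPC and 4 of 8 microglia markers fell, and 1 in each of these last lists rose. Their part was not tested.

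In the OL mimic comparisons edgeR called 0 of the 102 genes. With miR-145, 12 had an unadjusted p under 0.05 (against 13.4% of all genes), DESeq2 called 5 (4.20%), and the libraries did not overlap for 48 (47.3%), with a median log2 fold change of -0.03. With both mimics against miR-ctl, 7 had an unadjusted p under 0.05 (6.19% of all genes), DESeq2 called 1 (0.687%), and 29 did not overlap (36.8%). With both mimics against miR-145, 1 had an unadjusted p under 0.05 (1.47% of all genes), DESeq2 called 0 (0.0581%), and 22 did not overlap (24.8%). With the replicate term, edgeR called 15 of the 102 with miR-145, beside 2272 of the 15461 genes tested, and 0 in the other mimic comparisons. The smallest unadjusted p against miR-ctl belonged in both cases to Tuba4a, at 19.5 and 24.1 CPM with miR-ctl, 54.3 and 39.5 CPM with miR-145 (log2 fold change 1.11, SE 0.20, edgeR adjusted p = 0.164) and 48.5 and 36.7 CPM with both mimics (0.97, SE 0.19, edgeR adjusted p = 0.8). Between the mimic groups it belonged to Tubb6, at 67.2 and 71.4 CPM against 80.8 and 93.5 CPM (-0.34, SE 0.12, edgeR adjusted p = 1). The 5 genes that DESeq2 called with miR-145, chosen for mention after their values were seen, were Tuba4a, Map4 at 0.55 and Nav3 at 0.88, higher, and Haus8 at -0.66 and Sirt2 at -0.48, lower.

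The genes most like Tppp, Mapt and Stmn1 in pattern were found by Pearson's r of log2(CPM + 1) over the 10 libraries among 12035 genes. For Tppp they were Dstyk, Inppl1 and Tspan2, each with r = 0.999. For Mapt they were Epb41l2 (r = 0.994), Cav1 (r = 0.993) and Ptpre (r = 0.992), and for Stmn1 they were Tatdn1 (r = 0.974), Thbs4 (r = 0.965) and LOC680254 (r = 0.965). Tspan2 was at 49.7 and 51.9 CPM in OPC anti-miR-ctl and at 1366 and 1797 CPM in OL miR-ctl. These genes share the same libraries with the members, and their likeness rests mostly on the gap between OLs and OPCs.

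The mature miRNAs behind the mimics are shown because the mimics carry them and the inhibitor is aimed at the first, with the seed (bases 2 to 8) in capitals. They were taken from RefSeq on GRCr8, at chr18:57370033-57370055 on the minus strand for miR-145-5p and at chr3:33516561-33516581 on the minus strand for miR-219a-5p. The labels give the miR-145-5p mimic the mature sequence, and they name miR-219 without its arm. Each seed was carried by 1 of the 693 mature rat miRNAs in the table, so the mimics share no seed. Sites in the transcripts of the members were not analysed here.
rno-miR-145-5p: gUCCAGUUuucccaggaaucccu
rno-miR-219a-5p: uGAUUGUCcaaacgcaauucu

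Promoters were matched in RefSeq (GRCr8) for 5 of the 10 members, Tppp, Map6d1, Map2, Map1b and Stmn1, and read over the 250 bases upstream of the start. Those of Tppp and Map6d1 are shown because these genes were named in the choice of the members, and that of Map1b because it held its call in OPCs. The motifs searched on both strands were the GC box GGGCGG, the TATA box TATAAA, the E-box CANNTG and the SOX core ACAANG, and GC and TATA boxes are in capitals. Of 33469 promoters of that length, 30.5% held a GC box, 12.9% a TATA box, 65.5% an E-box and 36.9% a SOX core, and the median GC content was 51.2%. The Tppp promoter (chr1:31109704-31109953, minus strand) had 73.2% GC, 22 CpG, 3 GC boxes, 2 E-boxes and 1 SOX core. The Map6d1 promoter (chr11:94238302-94238551, plus strand) had 62.4% GC, 21 CpG and 0 matches to any of the 4 motifs. The Map1b promoter (chr2:32644472-32644721, minus strand) had 63.6% GC, 13 CpG, 1 E-box, 1 SOX core and 1 TATA box that began 48 bases before the start. The Map2 window had 32.0% GC, and that of Stmn1 67.6% GC with 1 GC box. These matches describe letters only.
Tppp: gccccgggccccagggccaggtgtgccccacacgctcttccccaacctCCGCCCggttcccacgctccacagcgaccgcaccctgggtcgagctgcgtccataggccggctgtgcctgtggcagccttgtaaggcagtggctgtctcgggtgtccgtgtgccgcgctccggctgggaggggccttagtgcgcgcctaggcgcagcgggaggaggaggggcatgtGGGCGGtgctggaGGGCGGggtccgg
Map6d1: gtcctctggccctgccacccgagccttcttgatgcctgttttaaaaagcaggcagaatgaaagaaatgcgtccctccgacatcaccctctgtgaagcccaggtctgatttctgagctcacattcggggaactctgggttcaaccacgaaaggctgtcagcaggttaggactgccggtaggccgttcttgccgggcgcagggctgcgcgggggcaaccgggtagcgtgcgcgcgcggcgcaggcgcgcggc
Map1b: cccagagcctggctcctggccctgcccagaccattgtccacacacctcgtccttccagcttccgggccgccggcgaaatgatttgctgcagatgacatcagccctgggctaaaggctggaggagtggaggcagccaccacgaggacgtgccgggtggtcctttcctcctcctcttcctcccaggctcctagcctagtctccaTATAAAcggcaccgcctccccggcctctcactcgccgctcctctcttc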

How the data were processed

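Reads of stranded mRNA libraries were assigned by the authors to GENCODE Rnor6.0 transcripts with Salmon 0.12.0. Per-gene estimated counts were made with tximport and deposited without normalization for 10 libraries, and were rounded here to whole numbers. A gene entered a comparison when 2 or more of the 4 libraries compared had 5 counts or more. The quasi-likelihood test of edgeR 4.0.16 (TMM, estimateDisp, glmQLFit, glmQLFTest; R 4.3.3) was run on those 4 libraries alone, for 5 comparisons, with a threshold of 0.05 on the p adjusted by Benjamini-Hochberg over all genes tested. The SE is the log2 fold change divided by the square root of F. Summaries and plots used Python 3.11.15, pandas 2.3.3, numpy 2.4.6 and matplotlib 3.10.9. The functions were tested on simulated data.

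Alternatives were DESeq2 1.42.0, its size factors within edgeR, all 5 groups in a single fit, a minimum of 10 counts or no filter, a replicate term, CPM on library totals, and leaving out each library. The authors' deposited comparison table holds means, log2 fold changes, standard errors, statistics and p-values, and it was used only for gene symbols. Although a passage of the methods names lentivirus, mimics are named for this experiment by the labels and by the study's results, and these were followed.

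Members and lists were chosen with earlier results of these data known. Named were all members and, of each list, the called genes if 4 or fewer, otherwise the 2 higher and the 2 lower with the largest change. With none called, the gene of smallest p was named. The result of 1 item that this rule names is not reported here. Differences between the libraries of a group exceeded counting error in every group. The chi-square of the replicate counts per degree of freedom was 11.1 in OPC anti-miR-ctl and 29.5 in OPC anti-miR-145. It was 65.3 in OL miR-ctl, 63.8 in OL miR-145 and 76 in OL miR-145+miR-219. The part of this spread in the counts of genes called was not tested. Low counts limit Tppp3 in OPCs and Stmn2 in OLs, and precision throughout is limited by having 2 libraries in a group.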

Additional observations from a re-analysis of the deposited data

How the results depend on the processing

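The count of members called changed with the tool or the setting in 3 comparisons. For OL miR-145 against OL miR-ctl edgeR called 0, DESeq2 called 2 (Tppp3 and Map6d1) and the replicate block called 5 (Tppp, Tppp3, Map6d1, Map1b and Stmn2). For OPC anti-miR-145 against OPC anti-miR-ctl edgeR called 3, DESeq2 called 5, a minimum of 10 counts or no filter gave 4 (with Stmn1 added), all 5 groups in a single fit called 1, and leaving out single libraries gave 1 to 5. For OL miR-145+miR-219 against OL miR-145 the replicate block called 3 (Map1b, Stmn1 and Stmn4). The block moved no other count of members. Deviations of libraries with the same number correlated at 0.237, 0.236 and 0.422 in the OL mimic comparisons, -0.074 in OPCs and 0.03 between OLs and OPCs, and the numbers are not known to pair the libraries. For control OLs against control OPCs the count of other microtubule genes ran from 39 to 82 with single libraries left out, where fewer libraries entered the fit.

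Leaving out single libraries turned the sign of these log2 fold changes, none of them called by edgeR with all libraries, between the lowest and highest value given. With miR-145 they were Map2 (-0.04 to 0.57), Stmn1 (-0.40 to 0.36) and Stmn4 (-0.76 to 0.25). With both mimics against miR-ctl they were Tppp (-0.48 to 0.19), Map6 (-0.16 to 0.33), Mapt (-0.42 to 0.07), Map2 (-0.22 to 0.46), Map1b (-0.38 to 0.07) and Stmn4 (-0.29 to 0.73). With both mimics against miR-145 they were Tppp (-0.03 to 0.68), Map2 (-0.47 to 0.17) and Stmn2 (-0.91 to 0.52), and with the inhibitor in OPCs Tppp3 (-1.21 to 0.31), Map6d1 (-0.25 to 0.08) and Map2 (-0.13 to 0.22), which was called, as higher, without OPC anti-miR-145 replicate 1 (adjusted p = 0.0305). The cause was not tested.

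Over all genes, edgeR called 0 with miR-145, against 649 by DESeq2, 2272 with the block and 32 with all 5 groups in a single fit. With both mimics against miR-ctl it called 0, against 106 by DESeq2, 132 with the block and 1 with no filter, and against miR-145 0, with 9 by DESeq2 and 184 with the block. With the inhibitor it called 4348, against 2553 in the single fit of 5 groups and 2348 to 7133 with single libraries left out, and between control OLs and OPCs 9042, against 4780 to 10306. Counts of other microtubule genes in the tested comparisons were added after seeing the data. They moved from 0 to 5 by DESeq2 and 15 with the block for miR-145, from 0 to 1 by DESeq2 for both mimics against miR-ctl, and from 40 to 26 in the single fit and 20 to 60 with single libraries left out for the inhibitor, where Map1a and Map4 lost their calls with the block. The order of groups changed on library totals for Map6 and Map2, whose span was then 1.61-fold and 1.90-fold, and for no other member.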
